A study of Mus musculus with 3 samples.

Results

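The 10 genes of fat cells and of fatty acid uptake, *Adipoq*, *Fabp4*, *Cd36*, *Lpl*, *Cfd*, *Pparg*, *Cebpa*, *Scd1*, *Plin2* and *Retn*, were followed through fusion of the embryonic mouse palate. All probe sets paired with 1 of these 10 genes and no other gene were taken, out of those for 18193 genes on the array. Maxillae of ICR fetuses at E14, labelled female, were cultured in suspension in BGJb medium with penicillin and streptomycin, and palatal tissue was hybridized to Affymetrix mouse genome arrays. Shelves not yet fused were taken at 5 h of culture, fusing shelves at 24 h and fused palates at 60 h, with 1 array each. The labels and one passage of the methods name the shelf edge for every stage, and another passage names the midline tissue during and after fusion, so stage, hours of culture and piece of tissue cannot be told apart. Palates were prepared individually, 5 per stage, and how these correspond to the single array of a stage is not stated. With 1 array per stage there was no replicate, no test between stages could be made, and no p-value is given.

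Fat cells are made from mesenchymal precursors under a pair of transcription factors that induce each other, the nuclear receptor PPARγ (*Pparg*) and C/EBPα (*Cebpa*). Mature fat cells secrete adiponectin (*Adipoq*), resistin in the mouse (*Retn*) and the complement protease adipsin (*Cfd*). Fatty acids reach the cell when lipoprotein lipase (*Lpl*) cleaves the triglycerides of circulating lipoproteins, they enter through the scavenger receptor CD36 (*Cd36*), and the carrier FABP4 (*Fabp4*) binds them inside. The desaturase SCD1 (*Scd1*) makes monounsaturated fatty acids, and perilipin 2 (*Plin2*) coats lipid droplets in most cell types. *Cd36*, *Lpl*, *Fabp4*, *Pparg* and *Plin2* are not restricted to fat cells, and macrophages in particular use them. *Cd36* and *Fabp4* are also genes of capillary endothelium.

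Of the members that take up and carry fatty acids, *Cd36* was 13.5-fold higher after than before fusion, *Fabp4* at least 5.49-fold higher and *Lpl* 2.64-fold higher. *Cd36* and *Fabp4* were already over 2-fold higher during fusion by the brightest probe set, neither was by the median over probe sets (1.86 and 1.60), and *Lpl* was not by either. *Pparg* came above the background floor on the array after fusion alone, and *Cebpa* and *Plin2* stayed just under 2-fold. *Scd1* kept within 2-fold at each stage. *Adipoq* and *Retn* lay under that floor on all 3 arrays.

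The values are MAS5 signals scaled to one trimmed mean. The floor of an array is the level under which a signal could not be told from that of receptor genes of smell and taste, and it lay at 19.4, 13.3 and 14.7. Here and below, the values of a gene follow the order before, during and after fusion. A signal under the floor was raised to it, so that a ratio with one dim side is a bound ("at least"), and no ratio is given when both sides were dim. A gene was counted as higher or lower past 2-fold. The log2 ratios of several probe sets of the same gene differed by an SD of 0.37 between the arrays before and during fusion. This SD was 0.46 between the first and the last array and 0.44 between those during and after. It was taken within a pair of arrays, so it holds no variation between animals or between replicate arrays. Only probe sets above the floor on both arrays of a pair entered this SD, so it does not cover dimmer ones. In tissue RNA, more cells of a type and more RNA per cell cannot be told apart.

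Of the 10 genes, 9 had probe sets, 16 in all, and none of these is marked by its suffix as shared between genes. No probe set was paired with *Cfd* alone in the annotation used here, and probe sets that name several genes were not used, so *Cfd* was not analysed. Of the 9, 5 lay above the floor before fusion, 6 during and 7 after it, by the brightest probe set. Of the 16 probe sets, 12 passed the floor somewhere and 4 nowhere. *Fabp4* and *Pparg* passed the floor through the later arrays only and therefore could not have been counted as lower than before fusion past 2-fold. A ratio under 1 was still possible, because the floor was highest on the first array.

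The upstream sequences of 4 genes whose signals were highest after fusion are shown. Those of *Cd36*, *Plin2* and the third start of *Pparg* hold motifs that nuclear receptors or C/EBP factors are known to bind. That of *Cebpa* holds a TATA box and neither of these. RefSeq promoters on GRCm38.p6 matched 7 of the 10 genes, with 9 starts, and none was available for *Fabp4*, *Lpl* and *Scd1*. Each sequence gives the 250 bases before a start of transcription, 5′ to 3′ on the strand of the gene. Capitals mark any of 5 motifs searched on both strands: the nuclear receptor motif AGGTCA, its direct repeat with 1 base between, AGGTCANAGGTCA, the C/EBP motif TTGCNNAA, the CCAAT box and the TATA box TATAAA. The direct repeat contains the receptor motif, and the other motifs do not contain each other.
*Cd36*: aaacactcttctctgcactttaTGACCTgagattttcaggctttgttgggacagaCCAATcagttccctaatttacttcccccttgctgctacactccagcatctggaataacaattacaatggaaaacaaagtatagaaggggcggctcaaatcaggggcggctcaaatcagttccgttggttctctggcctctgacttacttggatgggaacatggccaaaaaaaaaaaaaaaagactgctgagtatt
*Plin2*: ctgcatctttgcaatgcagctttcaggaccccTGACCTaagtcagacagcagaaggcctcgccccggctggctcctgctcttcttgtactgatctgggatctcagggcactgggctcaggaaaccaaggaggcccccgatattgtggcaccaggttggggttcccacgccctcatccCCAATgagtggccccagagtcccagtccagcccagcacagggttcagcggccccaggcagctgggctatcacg
*Cebpa*: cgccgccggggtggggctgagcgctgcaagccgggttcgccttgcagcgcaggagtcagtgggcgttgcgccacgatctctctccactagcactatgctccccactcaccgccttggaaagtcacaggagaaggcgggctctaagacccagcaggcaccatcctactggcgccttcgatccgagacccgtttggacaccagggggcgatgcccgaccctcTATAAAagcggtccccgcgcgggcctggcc
*Pparg*: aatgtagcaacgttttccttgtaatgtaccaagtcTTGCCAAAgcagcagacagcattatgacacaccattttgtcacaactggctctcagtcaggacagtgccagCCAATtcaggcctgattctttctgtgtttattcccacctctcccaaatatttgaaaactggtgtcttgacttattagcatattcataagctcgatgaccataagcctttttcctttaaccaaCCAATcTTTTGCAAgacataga

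*Cd36* lies at chr5:17835897-17836146 (minus strand) and *Plin2* at chr4:86670060-86670309 (minus strand). *Cebpa* lies at chr7:35119043-35119292 and the third start of *Pparg* at chr6:115421816-115422065, both on the plus strand. The receptor motif was found on the other strand at -228 to -223 of *Cd36* and at -218 to -213 of *Plin2*. The C/EBP motif was found at -215 to -208 and, on the other strand, at -16 to -9 of the third *Pparg* start. The first and second *Pparg* starts, not shown, held the receptor motif at -28 to -23 and at -9 to -4, and no C/EBP motif. The second also held TATAAA at -29 to -24 and CCAAT at -83 to -79, both on the other strand. Of the genes not shown, *Adipoq* held CCAAT only, and *Cfd* and *Retn* held none of the motifs. *Cebpa* held a TATAAA at -30 to -25. CCAAT stood at -195 to -191 of *Cd36*, at -73 to -69 of *Plin2*, and at -144 to -140 and -22 to -18 of the third *Pparg* start. Among 32851 promoters of the same length, 14% held the receptor motif, 9.56% the C/EBP motif, 33.8% CCAAT, 12.4% TATAAA and 0.0335% the direct repeat, which none of the 9 starts held. *Cebpa* had 66.4% G and C in this window and *Cd36* 43.2%, against a median of 52.4% over all promoters. A match is a run of letters and not a measured site.

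**Figure D1:**
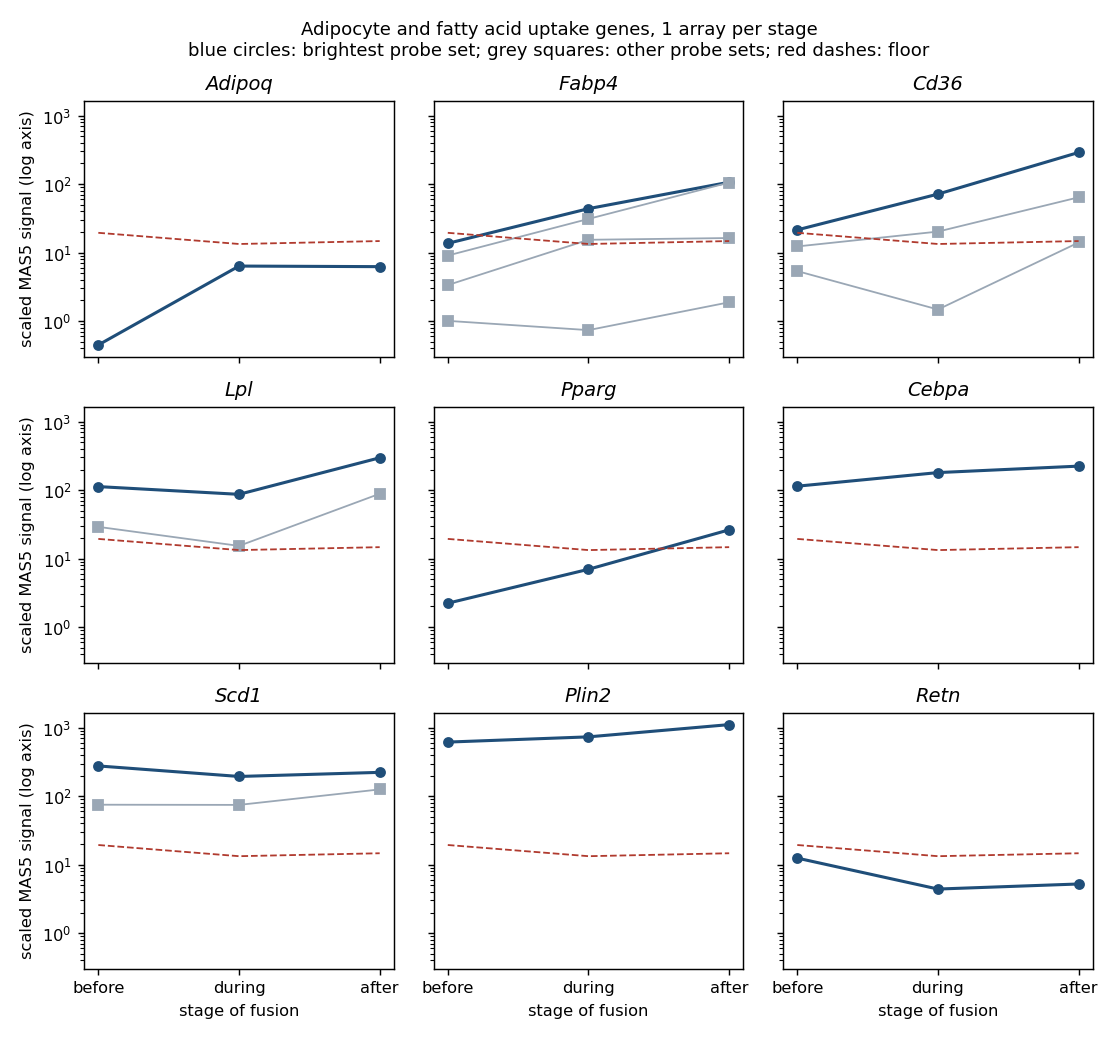
Scaled MAS5 signal (log axis) of each probe set of the 9 measured genes by stage of fusion (1 array each), with the floor as red dashes. The brightest probe set of *Cd36* goes from 21.4 to 289, that of *Fabp4* crosses the floor between the first array and the second, and *Adipoq* and *Retn* stay under it.

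The brightest probe set of *Cd36* gave scaled signals of 21.4, 71.4 and 289. The first value lay just above the floor of 19.4, and the signal was higher at each later stage. The ratio was 3.33 during over before, 13.5 after over before and 4.06 after over during fusion, or 1.74, 3.76 and 2.02 on the log2 scale, each over 4 times the SD between probe sets. Ranked by ratio, *Cd36* stood at 158 of 13985 genes after over before fusion and at 223 of 13911 during over before. A dimmer probe set had signals of 12.3, 20.2 and 64.0, a bound of 1.04 during and of 3.30 after fusion over before. The remaining one never passed the floor. A ratio past 2-fold during fusion was thus seen on 1 probe set, and the bound of the dimmer one does not decide. The median over those above the floor was at least 1.86 during and at least 6.68 after over before fusion.

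*Fabp4* was under the floor before fusion on all 4 of its probe sets. The brightest gave 13.6, 43.7 and 106. Against the array before fusion this is at least 2.25-fold higher during fusion and a bound of 5.49 after it, and the last array was 2.43-fold higher than the second. A second probe set had signals of 9.03, 30.9 and 105, with bounds of 1.60 and 5.43 over the first array and a ratio of 3.40 between the later ones. Both were thus highest after fusion. Another had signals of 3.34, 15.3 and 16.3, which are above the floors of the later arrays and under that of the first, and the fourth was under the floor on all arrays, at most 1.87.

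*Lpl* took another course. Its brightest probe set gave 113, 86.9 and 297. It was lowest during fusion and highest after it, with a ratio of 0.771 during over before, 2.64 after over before and 3.42 after over during fusion. The second probe set, with signals of 29.1, 15.3 and 88.6, followed the same order, with ratios of 0.527, 3.04 and 5.78. On the log2 scale, the ratio of the brightest was -0.38 during over before fusion, about the SD between probe sets, and 1.77 after over during, larger than that SD.

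*Pparg* has 1 probe set, with scaled signals of 2.23, 6.98 and 26.3. The first and second values were under the floor and have no order. After fusion the signal was at least 1.36-fold that before and at least 1.98-fold that during fusion, so *Pparg* was seen after fusion at a low signal and how far it changed was not measured beyond these bounds. *Cebpa*, also with 1 probe set, had signals of 114, 181 and 224. All of them lay above the floor, with ratios of 1.58 during and 1.96 after over before and 1.24 after over during fusion. The log2 ratio of 0.97 after over before was larger than the SD between probe sets, and that of 0.31 after over during was not.

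*Plin2* gave 619, 737 and 1113 on its single probe set. Its ratio was 1.19 during over before, 1.80 after over before and 1.51 after over during fusion. The first of these was within the SD between probe sets and fell to 0.983 with the arrays scaled to the poly-A controls, and the others were larger than that SD. *Scd1* gave 277, 195 and 223 on the brightest probe set and of 75.2, 74.7 and 126 on the other. After over before fusion, the brightest had a ratio of 0.806 and the other 1.67, so the probe sets differed in direction and neither passed 2-fold.

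The secreted products of fat cells with a probe set gave no ratio. *Adipoq* had scaled signals of 0.446, 6.34 and 6.21, each under the floor of its array. *Retn* had 12.5, 4.41 and 5.23, also under the floors. Differences between such values have no order here, and the arrays allow no statement on either gene other than that it was not seen above background.

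**Figure D2:**
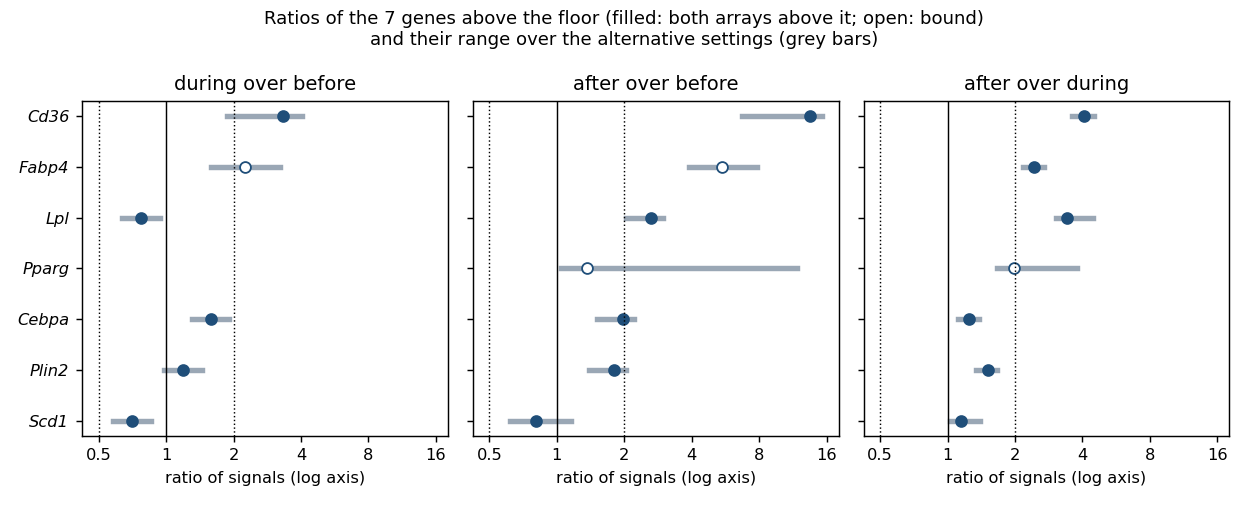
Ratio of scaled signals (log axis) of the 7 genes above the floor for each pair of stages, as a filled circle where both arrays were above the floor and an open circle for a bound, with the range over the alternative settings as a grey bar. *Cd36*, *Fabp4* and *Lpl* lie over 2-fold after fusion under each setting. The bars of *Cebpa* and *Plin2* cross the dotted 2-fold line after over before fusion and stay under it in the other pairs.

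Counted over the list, 2 of the 10 genes (*Cd36*, *Fabp4*), or 2 of the 6 with a ratio, were over 2-fold higher during than before fusion. Of all genes with a ratio, 5.46% were higher and 3.19% lower. The count in the list was 0 with the median over probe sets. It was 1 with a floor at the median of each array or with the poly-A controls, where the bound of *Fabp4* was under 2. A bound under 2 does not show that a gene stayed within 2-fold. After over before fusion, 3 of the 10, or of the 7 with a ratio, were higher (*Cd36*, *Fabp4*, *Lpl*). Of all genes with a ratio, 12.6% were higher and 9.59% lower. After over during fusion the same 3, again of 7 with a ratio, were higher, against 8.74% of all genes with a ratio higher and 5.08% lower. No gene of the list was over 2-fold lower in any pair of stages. The median log2 ratio of those with a ratio was 0.46 during over before (6 genes), 0.97 after over before (7 genes) and 0.98 after over during (7 genes). That of all genes was -0.05, -0.09 and -0.03. The comparisons share arrays, and the genes with a ratio include *Fabp4* and, after fusion, *Pparg*, which entered only through the arrays where they were high.

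Further genes of lipid handling, in 9 lists with 153 genes, were set beside these. A probe set was named for 139 of them, 114 had a ratio during over before fusion, and 121 did in the other pairs. Of these, 10 (8.77%) were higher and 6 lower during than before fusion, 25 (20.7%) higher and 4 (3.31%) lower after than before, and 18 (14.9%) higher and 4 lower after than during fusion. Among all genes with a ratio, 5.46%, 12.6% and 8.74% were higher in these pairs and 3.19%, 9.59% and 5.08% lower. The counts of the single lists below are to be read beside these shares. Over 6 scalings the counts ran from 9 to 19 higher and 2 to 7 lower during over before, from 19 to 34 higher and 4 to 12 lower after over before, and from 13 to 24 higher after over during fusion. The median log2 ratio was 0.09, 0.29 and 0.28. The first is under 0 with one median and with the poly-A controls, and the second with the poly-A controls.

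Among 30 genes of fatty acid uptake and binding, 20 had a ratio after over before fusion, and 7 of these were higher and 1 was lower. *Gpihbp1*, the anchor that holds lipoprotein lipase on capillary endothelium, had signals of 44.1, 78.8 and 174, a ratio of 3.93 between last and first. *Lmf1* and *Lmf2*, which help the lipase fold, had ratios of 1.16 and 0.816, and *Angptl4*, its inhibitor, 0.868. *Lipg*, the endothelial lipase, had signals of 41.6, 77.1 and 146, a ratio of 3.52. *Slc27a2*, a fatty acid transporter with acyl-CoA synthetase activity, was under the floor before fusion and gave 51.0 and 247 on the later arrays, at least 12.7-fold higher on the last than on the first. *Slc27a4*, a transporter of skin and gut, was the 1 lower gene, with 206 before and 88.2 after fusion, 2.34-fold lower. The caveolar protein gene *Cav1* had a ratio of 2.42, and the synthetase genes *Acsl3* and *Acsl4*, which activate fatty acids, had ratios of 3.32 and 2.52.

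The relatives of *Fabp4* did not move as one. *Fabp3*, the carrier of heart and muscle, had signals of 34.1, 123 and 141, 4.12-fold higher after than before fusion, and its other probe set stayed within 2-fold. *Fabp5*, the carrier of epidermis, had 6189, 5866 and 6740, a ratio of 1.09. *Fabp7*, the carrier of brain and glia, had 82.2, 120 and 47.5, a ratio of 0.579. *Fabp1*, *Fabp2*, *Fabp6*, *Fabp9* and *Pmp2* were under the floor on all arrays.

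**Figure D3:**
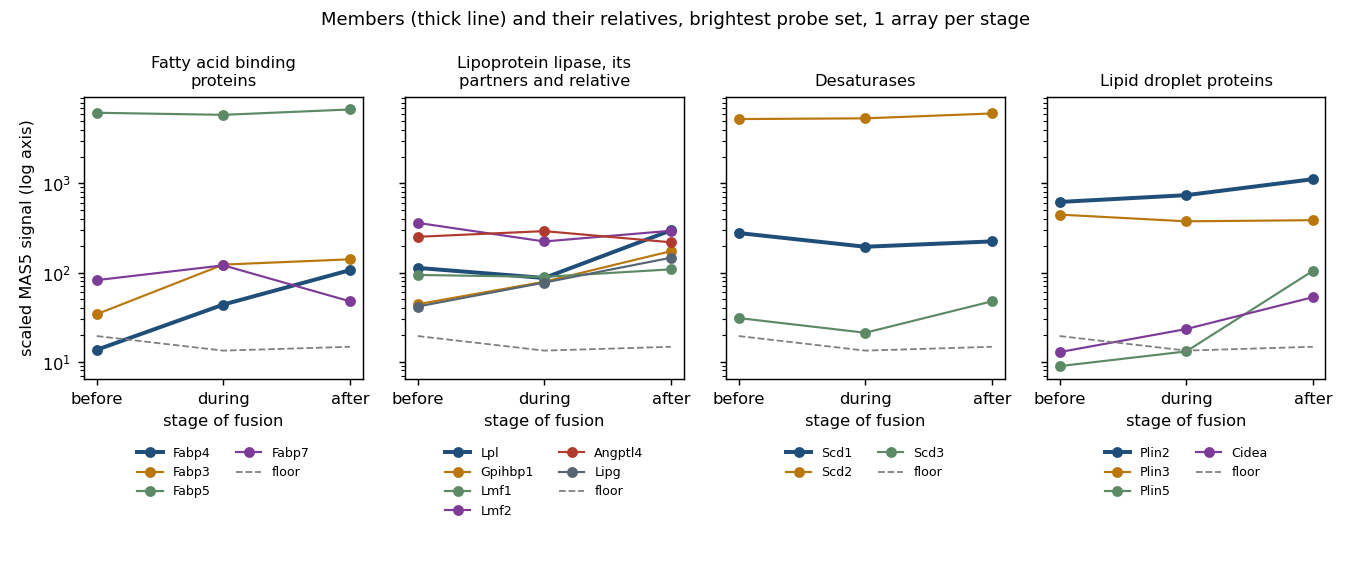
Scaled MAS5 signal (log axis) of 4 members (thick lines) and of their relatives by the brightest probe set, with 1 array per stage and the floor as grey dashes. *Gpihbp1* and *Lipg* go up with each stage, *Lpl* goes up after fusion, and *Fabp5* and *Scd2* stay level; signals of different genes are not comparable in height.

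Genes of fatty acid synthesis and desaturation were mostly within 2-fold. Of 15 with a ratio after over before fusion, 2 (13.3%, against 12.6% of all genes) were higher and none was lower. *Me1*, malic enzyme, which supplies NADPH, had signals of 150, 413 and 738, a ratio of 4.93. *Acss2*, which activates acetate, had a ratio of 2.03. *Fasn*, the fatty acid synthase, had a ratio of 1.26, and *Scd2*, the desaturase next to *Scd1* in its family, had signals of 5262, 5360 and 6077. *Scd3* had 30.9, 21.1 and 47.5. Of 22 genes of triglyceride synthesis and lipid droplets, 4 (18.2%) were higher and 1 (4.55%) was lower after than before fusion. *Plin5*, a droplet protein of oxidative tissue, reached a signal of 104 after fusion from under the floor at both earlier stages, with bounds of 5.37 over the first and 7.83 over the second array. *Lpin1*, a phosphatidate phosphatase, had a ratio of 2.72, *Pnpla2*, the first lipase of the droplet, 2.33, and *Dgat2*, which makes triglyceride, 2.04, with 1.72 on its other probe set. *Plin3* had a ratio of 0.866. *Fitm1*, a droplet-forming protein of muscle, had signals of 68.3, 67.6 and 15.4, 4.44-fold lower after than before fusion. Of 13 genes of fatty acid oxidation, 1 was higher and none was lower after than before fusion. This was *Pdk4*, which holds back glucose oxidation, under the floor at first and then at 60.9 and 132, at least 6.81-fold higher after than before fusion.

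Of 19 genes of adipogenic transcription factors, 3 (15.8%, against 12.6% of all genes) were over 2-fold higher and 1 lower after than before fusion. *Cebpb* and *Cebpd*, which act ahead of *Pparg* and *Cebpa* in fat cell formation, had signals of 277, 802 and 1698 and of 68.3, 127 and 414, with ratios of 6.13 and 6.05 after over before fusion. The other probe set of *Cebpb* had a ratio of 10.1 and that of *Cebpd* 1.26. *Klf5* had a ratio of 3.47, with 1.17 on its other probe set above the floor. *Prdm16*, a factor of brown fat, was 2.52-fold lower on its brightest probe set and within 2-fold on the other 2 with a ratio, the least changed at 0.803. *Ebf1* and *Ebf2*, factors of fat cell precursors named after their values were seen, had 93.4, 42.7 and 115 and 74.2, 28.2 and 85.8, so that they were lowest during fusion. All 3 probe sets of *Ebf2* and 1 of 4 of *Ebf1* were over 2-fold lower during than before. Of 7 restrainers of fat cell formation, 2 were higher and none was lower, *Ddit3* with a ratio of 3.73 (1.92 on its other probe set) and *Klf2* with 3.40. *Dlk1*, the preadipocyte factor, had signals of 3766, 3064 and 5761, a ratio of 1.53.

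The tissue was checked against markers of the fat cell. Of 18, 16 had a probe set, and 8 of these were under the floor on all arrays: *Plin4*, *Cidec*, *Lep*, *Aqp7*, *Pck1*, *Mrap*, *Thrsp* and *Ucp1*. Of the 8 with a ratio after over before fusion, 2 (25%, against 12.6% of all genes) were higher. None was lower, against 9.59% of all genes. *Car3*, a carbonic anhydrase found in muscle and fat cells, was at least 45.4-fold higher on its brightest probe set and 4.48 on the other with a value. The study itself lists *Car3* among the large changes on these arrays. *Cidea*, a droplet protein of brown fat, had signals of 12.8, 23.2 and 52.9, at least 2.73-fold higher. *Lipe*, hormone-sensitive lipase, had a ratio of 1.26 and *Slc2a4*, the insulin-responsive glucose transporter, 0.714. By the brightest probe set, *Lgals12* had ratios of 1.94 during and 1.88 after over before fusion, and *Gpd1* 0.373 and 0.688. Summed over the 16 markers, the scaled signal was 399, 1343 and 1256. Without *Car3* it was 380, 334 and 376.

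**Figure D4:**
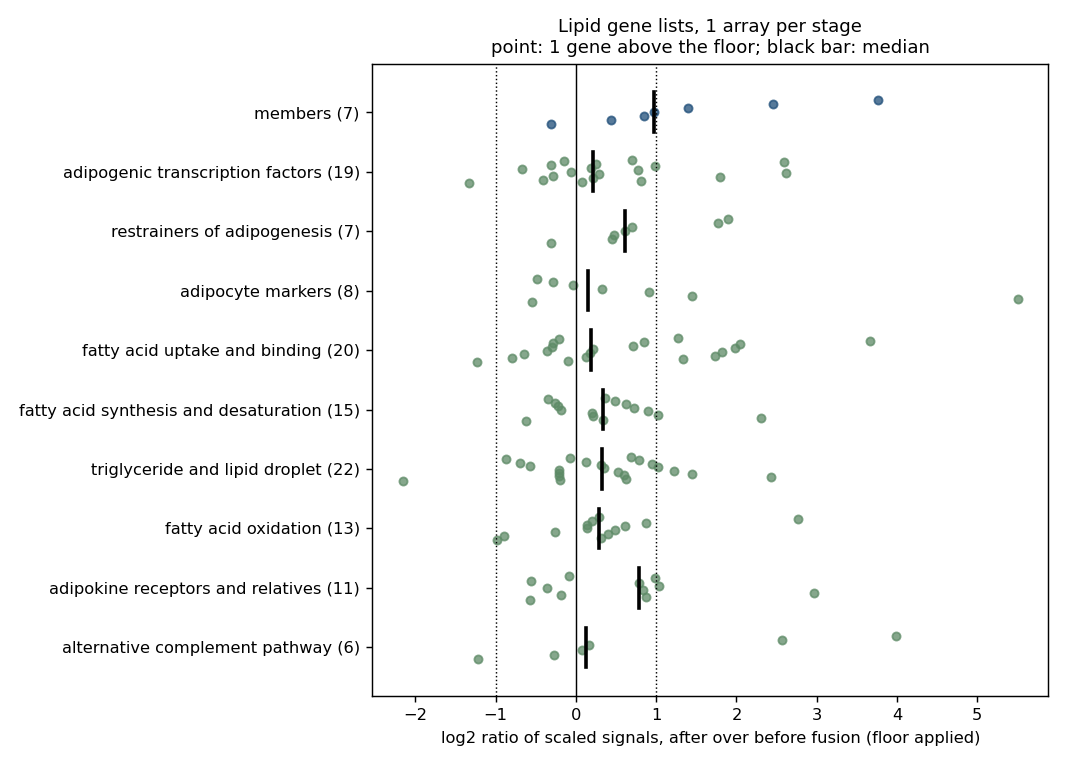
Log2 ratio of scaled signals after over before fusion for the members and 9 lists of lipid genes, each point 1 gene above the floor on at least 1 of both arrays, with the median as a black bar, the number of genes in brackets and 2-fold as dotted lines. The members have a median of 0.97, and the medians of the 9 lists lie between 0.12 and 0.79. Scaled to the poly-A controls, the medians of 7 of the 9 lists fall under 0, and those of the restrainers and of the adipokine receptors do not.

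Of the secreted products, adiponectin had receptors above the floor. *Adipor1* and *Adipor2*, the adiponectin receptors, had signals of 608, 711 and 1051 and of 358, 410 and 732, with ratios of 1.73 and 2.04 after over before fusion, and *Cdh13*, which binds adiponectin, had 65.4, 66.1 and 130, a ratio of 1.98. *C1qtnf3*, a relative of adiponectin, went from under the floor to 432 and then 151, with bounds of 22.3 and 7.81 over the first array. The resistin relatives *Retnla* and *Retnlb* were under the floor on all arrays. In the alternative complement pathway, in which adipsin acts, 6 of 8 genes had a probe set and 2 were higher and 1 lower after than before fusion. *Cd55*, which restrains the pathway, had signals of 25.5, 236 and 403, a ratio of 15.8, and at the lowest of 3 probe sets 5.44. The receptor gene *C3ar1* was at least 5.94-fold higher, with 1.44 at the lowest of 3, and *Cfp*, properdin, was 2.34-fold lower.

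Markers of other cells moved as well, and their part in the values of *Cd36*, *Fabp4*, *Lpl*, *Pparg* and *Plin2* was not tested. Their counts stand beside these shares of all genes with a ratio. During over before fusion 5.46% were higher and 3.19% lower, after over before 12.6% and 9.59%, and after over during 8.74% and 5.08%. Of 15 macrophage markers, 14 had a ratio, and 8 of these were higher during than before fusion, 14 after than before and 7 after than during. Over 6 scalings these counts ran from 4 to 12, from 12 to 14 and from 6 to 8. Their summed scaled signal was 883, 1864 and 4147, and *Cd163* alone was under the floor on all arrays. Of 11 endothelial markers with a ratio, none was higher and 5 were lower during than before fusion, and none was higher and 1 lower after than before. Their sum was 1774, 963 and 1172, with *Vwf* under the floor, and over the scalings 2 to 7 were lower during and 1 to 6 after than before. Skeletal muscle markers summed to 840, 298 and 196, with 8 of 9 lower after than before fusion. Epithelial markers summed to 12633, 23051 and 30697, with 7 of 11 higher after than before. Ciliated cell markers summed to 207, 2864 and 18432. Mast cell markers summed to 213, 285 and 2093, of which *Hdc* gave 1835 after fusion. Palatal mesenchyme markers summed to 14195, 7853 and 4675, with 9 of 12 lower after than before.

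**Figure D5:**
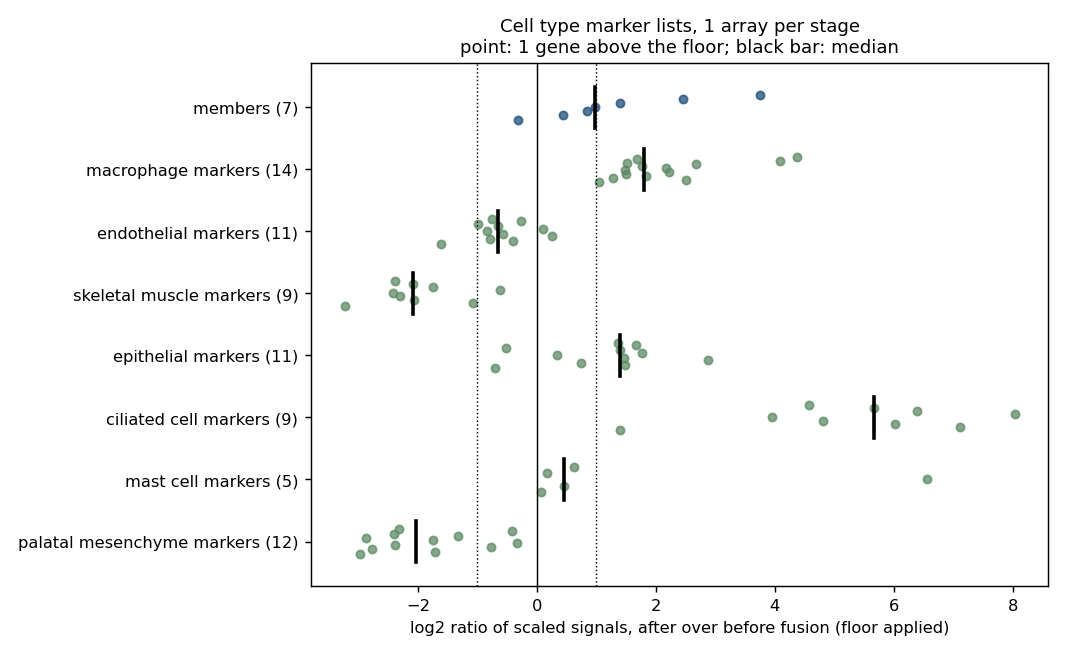
Log2 ratio of scaled signals after over before fusion for the members and 7 lists of cell type markers, each point 1 gene above the floor on at least 1 of both arrays, with the median as a black bar and 2-fold as dotted lines. Each of the 14 macrophage markers lies over 2-fold, and no endothelial or skeletal muscle marker is over 2-fold higher.

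The genes most like *Cd36* in their course were sought among 8578 genes above the floor on all 3 arrays with a mean signal over 100, by the distance between their log2 ratios during and after over before fusion. Leaving out genes named only by Gm and a number, the 3 nearest were *Smim22*, *Clec4n* and *Ccn1*, at distances of 0.11, 0.21 and 0.23. *Clec4n*, a lectin receptor of myeloid cells, had signals of 36.2, 135 and 541, and *Smim22* 112, 404 and 1493. *Ccn1*, a matrix-associated growth regulator, had 92.2, 295 and 1073. *Scd1*, with the lowest ratio after over before fusion, had *Eif4e3*, *Larp7* and *Mepce* nearest by the same rule, the farthest at a distance of 0.018. With 3 arrays a course is 2 ratios, so that many genes lie close to any one.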

How the data were processed

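Per the methods of the study, arrays were read with GeneChip Operating Software, and background and signal intensity were computed with MAS5.0. The deposited intensity values are linear, 1 for each probe set, with no scaling target stated. The labels name RNeasy Plus Micro for extraction and the methods Trizol. The table holds 45101 probe sets, 64 of them controls. Of the others, 34945 name 1 gene in the platform annotation, 932 several and 9160 none, and 34741 were matched by gene ID to GRCm38.p6 for their symbol.

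The trimmed means (without the top and bottom 2%) were made equal by factors of 1.11, 0.918 and 0.986. The floor was the 95th percentile of 81 olfactory, vomeronasal and taste receptor probe sets. A gene was read by its probe set with the highest mean signal. A deposited 0 was set to 0.1 where no floor was used. Members, lists and settings were chosen with earlier results of these data known. Further genes were named by their place among the 3 highest or 3 lowest ratios after over before fusion past 2-fold in a list, or as relatives, receptors or partners of members. Others, among them *Cav1*, *Acsl3*, *Acsl4*, *Fasn*, *Lipe*, *Slc2a4*, *Lgals12*, *Gpd1* and *Dlk1*, were named outside this rule. The number of arrays limits the precision. Steps were tested on simulated data (Python 3.11.15, pandas 2.3.3, numpy 2.4.6). The simulated fold changes were put into brighter probe sets only, so signals near the floor were not covered.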

Additional observations from a re-analysis of the deposited data

How the results depend on the processing

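*Cd36*, *Fabp4* and *Lpl* stayed over 2-fold higher after than before and after than during fusion under all 9 alternatives for single genes, with *Cd36* after over before from 6.68 to 15.3, *Fabp4* from 3.88 to 7.83 and *Lpl* from 2.03 to 2.98. During over before fusion, the members over 2-fold higher numbered 2, against 4 with no floor (1 was lower), 1 with a floor at the median of each array, 0 with the median over probe sets or a 4-fold threshold and 1 with poly-A scaling. After over before fusion they numbered 3, against 5 with no floor (1 was lower) and 5 with the signals as deposited, where *Cebpa* (2.22) and *Plin2* (2.03) passed. After over during fusion, 1 passed 4-fold. *Pparg* after over before ran from 1.05 to 11.8, the last with no floor. The other lipid genes higher and lower during over before fusion numbered 17 and 14 with no floor, 19 and 2 as deposited and 3 and 0 at 4-fold. With the hybridization controls 16 were higher, and 3 were lower with a floor at the median or with the median over probe sets. After over before, 9 were lower with no floor and 12 with the poly-A controls, and 11 were higher and 1 lower at 4-fold. After over during, 11 were lower with no floor, and 2 were higher and 1 lower at 4-fold. Of the other results of comparisons, 121 kept within 1.5 times or within the spread between probe sets. The cause was not tested. The signals as deposited moved the median log2 ratio of all genes by 0.28 during over before and 0.18 after over before, and the poly-A controls by -0.28 and -0.38.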
